A study of Mus musculus with 9 samples.

Results

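The 36 genes described here encode the enzymes of glycolysis, the transporters and kinases that feed and direct the pathway, and members of the response to low oxygen. They were chosen by name: each row of the deposited expression table that carried a member's gene name was taken, which gave 37 rows of 54532 because Aldoa stands in 2 rows. Values are FPKM (fragments per kilobase of transcript and unit of depth, so that levels can be compared between genes), given as mean ± SD over the 3 libraries of a group. All 37 rows reached the level needed for testing, 1 FPKM or more in 3 or more libraries.

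The RNA came from choroidal-retinal flat mounts of C57BL/6 mice, in 3 groups of 3 libraries. The mice titled Betp-Gel@Ran (here BetP-Gel@Ran) had been injected in the vitreous with BetP-Gel, a hydrogel, 3 months earlier. The treatment label of that group names the gel alone, whereas the sample titles and the series title also name ranibizumab, an antibody fragment against vascular endothelial growth factor A. The second group, labelled CNV mice with wet-AMD in the sample titles, stands for the neovascular form of age-related macular degeneration, and the third group was labelled untreated. No label says how CNV was brought about, whether BetP-Gel@Ran mice had CNV, how old the mice were, or when CNV and untreated samples were taken, so time and treatment cannot be told apart. The labels do not state that each library is a different animal; p-values therefore reflect differences among these libraries, and these could be technical.

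Depth was similar throughout, at 16990118 to 18753737 reads on genes per library. Retina and pigment epithelium were present, with the rod transducin gene Gnat1 at 547 ± 83.5, 364 ± 29.0 and 1135 ± 312 FPKM and Rpe65 at 69.3 ± 3.26, 82.3 ± 20.9 and 79.3 ± 28.3 FPKM in BetP-Gel@Ran, CNV and untreated libraries. The samples also held cornea, lens and skeletal muscle transcripts, of which Krt12 reached 4677 ± 552 FPKM and Acta1 1558 ± 118 FPKM in untreated libraries. Several libraries stood apart from their groups in what they held. Untreated replicate 3 had a summed level of 10 lens genes of 12188.5 FPKM, against 326 and 279 in the other untreated libraries, and BetP-Gel@Ran replicate 2 had 4034 FPKM, against 1018 and 1445 in the other BetP-Gel@Ran libraries. BetP-Gel@Ran replicate 3 had 125 FPKM over 9 neutrophil markers, against 16.5 in each of the others of its group. Most of this sum was S100a8 (37.6 FPKM) and S100a9 (83.1 FPKM), and the other markers did not move together. Csf3r was highest in that library (1.57 against 0.933 and 0.998 FPKM), and Retnlg was lowest there (1.29 against 2.60 and 2.80 FPKM). CNV replicate 3 was the lowest of the CNV libraries in 25 of the 37 member rows (67.6%), compared with 37.8% of all genes tested. Member calls that changed without CNV replicate 3 or untreated replicate 3 are given with the value without it.

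Glycolysis splits glucose into pyruvate, and lactate dehydrogenase turns pyruvate into lactate. Photoreceptors are known for making lactate even when oxygen is present, and fast skeletal muscle relies on the same pathway with its own isoforms of several enzymes. When oxygen is low, the prolyl hydroxylases that mark hypoxia-inducible factor (HIF) for destruction work less, HIF accumulates, and it raises transcription of most glycolytic enzymes together with genes outside the pathway. Many members are therefore both glycolytic enzymes and HIF targets, and the isoforms enriched in photoreceptors, neurons, heart or muscle are described apart from the HIF system and its targets outside glycolysis.

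In CNV against untreated libraries, 14 of the 37 rows passed the test, where 44.6% of all 14086 genes tested did. Of these rows 6 were higher, where 22.5% of all genes were, and 8 were lower, where 22.1% of all genes were. Calls are limma tests with a Benjamini-Hochberg adjusted p under 0.05 over all genes tested. The 6 that rose were Slc2a1, Pfkfb3, Pfkfb4, Car9, Ankrd37 and Ndufa4l2, which are a glucose transporter, regulatory enzymes and HIF targets, and none of the 17 glycolytic enzymes was among them. The 8 that fell were all glycolytic enzymes. As shares of the rows these were 16.2% and 21.6%, the first below the share of all genes and the second near it. The members' median log2 fold change was -0.04, beside 0.01 over all genes.

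In BetP-Gel@Ran against CNV libraries, 11 rows passed the test, where 14.1% of all genes did. Of these 5 (13.5% of the rows) were higher, where 5.81% of all genes were, and 6 (16.2%) were lower, where 8.27% of all genes were. Pfkm, Aldoc, Epas1, Egln3 and Ndrg1 rose, and Pgk1, Ldha, Slc2a1, Slc16a3, Adm and Ddit4 fell. The members' median log2 fold change was -0.26, beside 0.00 over all genes. Each of these 11 calls was lost in at least 3 of the 9 fits that left out 1 library, and without CNV replicate 3 the number of lower rows was 15.

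In BetP-Gel@Ran against untreated libraries, 20 rows passed the test, where 34.2% of all genes did. Of these 4 (10.8% of the rows) were higher, where 16.1% of all genes were, and 16 (43.2%) were lower, where 18.1% of all genes were. The 16 comprised 14 glycolytic enzymes with Bnip3 and Ddit4, while Pfkfb3, Pfkfb4, Car9 and Ndrg1 rose. The members' median log2 fold change was -0.31, beside -0.01 over all genes. The 3 comparisons share libraries, so their directions are not independent of each other.

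**Figure D1:**
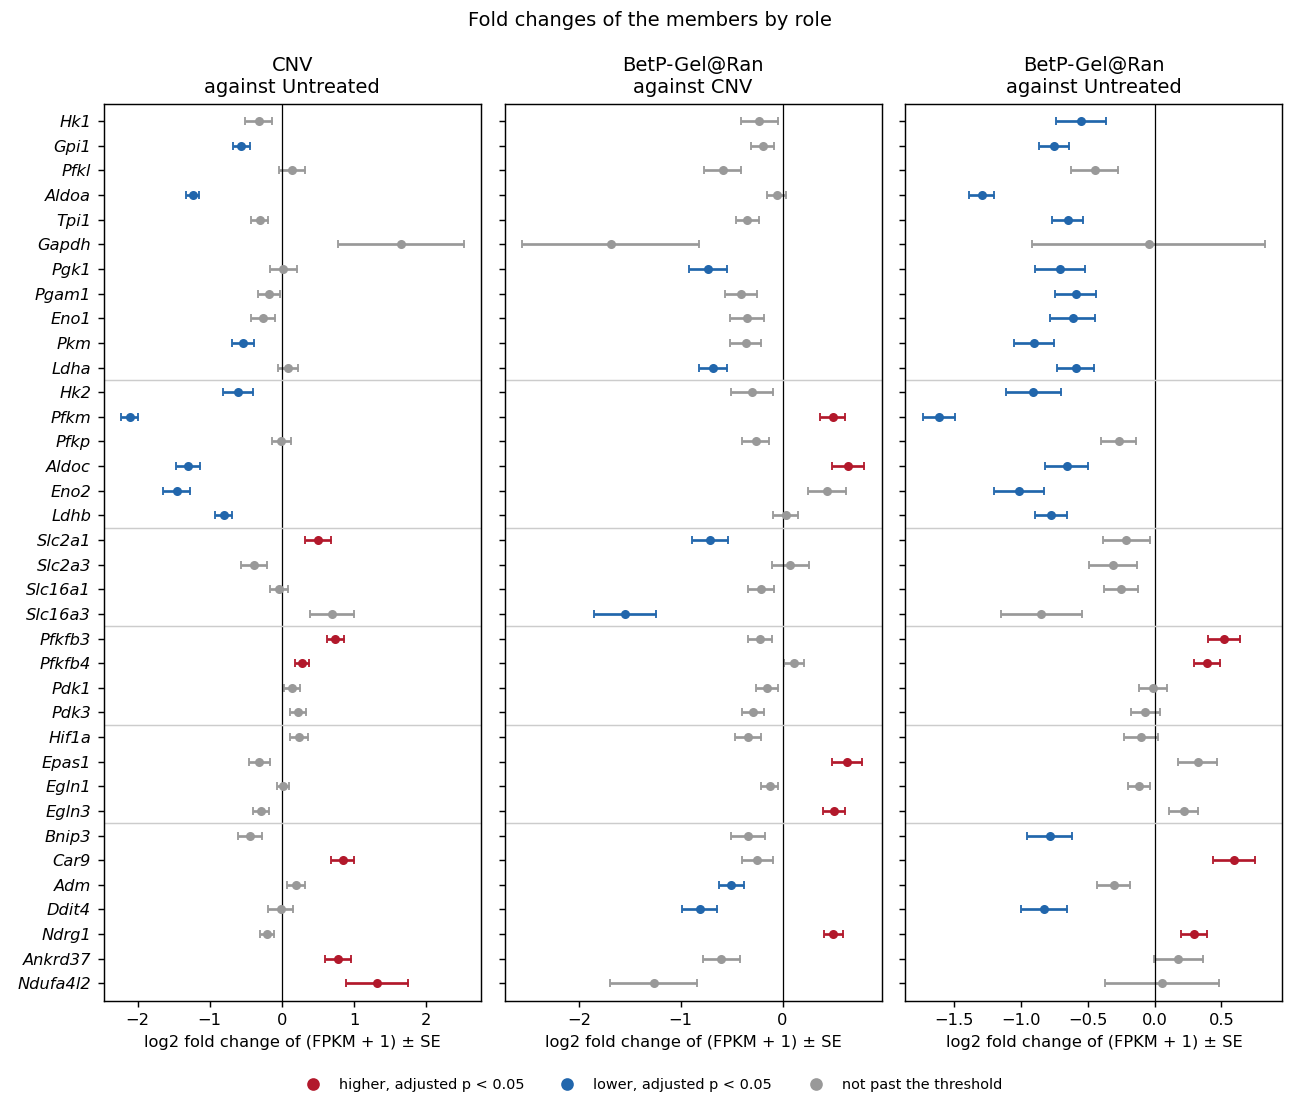
Log2 fold change of (FPKM + 1) with its SE for the 36 genes in each of the 3 comparisons, ordered by role and coloured by whether the adjusted p was under 0.05. The 6 isoforms in the second block are negative in both comparisons with untreated libraries, from -2.11 (Pfkm) to -0.01 (Pfkp, not called) in CNV and from -1.62 (Pfkm) to -0.27 (Pfkp, not called) in BetP-Gel@Ran.

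The promoters of the members are shown because HIF binds DNA at a short core sequence. RefSeq promoter windows (GRCm38.p6, 250 bases before to 50 bases after a gene's start) were matched for 32 of the 36 genes, and none was matched for Slc2a3, Epas1, Ndrg1 and Ndufa4l2. The core was searched as ACGTG or GCGTG on both strands, so the palindrome CACGTG counts on each strand and CACGCGTG holds 2 overlapping matches. At least 1 of the motifs stood in 26 of the 32 member windows, compared with 43.8% of all 32851 windows. ACGTG alone was in 19 of 32, beside 19.6% of all windows, and GCGTG in 18 of 32, beside 32.4%. The median GC content was 64.8% in the member windows and 52.7% in all windows. A match describes the letters and is not shown to be a binding site. The 5 windows below belong to Pfkfb3, Car9 and Ankrd37, whose rises in CNV held whichever library was left out, to Slc16a3, which had the largest fall among the members called in BetP-Gel@Ran against CNV, and to Eno2, a neuronal isoform with no match in its window. Capitals mark matches on either strand (CACGT and CACGC are the motifs read on the other strand), and the sequences run 5′ to 3′ on the gene's strand. They lie at chr11:120948817-120949116 on the plus strand (Slc16a3), chr2:11553880-11554179 on the minus strand (Pfkfb3), chr4:43506776-43507075 on the plus strand (Car9), chr8:45999801-46000100 on the minus strand (Ankrd37) and chr6:124769624-124769923 on the minus strand (Eno2). The Ankrd37 window lies 5857 bases from the gene start in the deposited table, and the other windows are within 587 bases of it.
Slc16a3: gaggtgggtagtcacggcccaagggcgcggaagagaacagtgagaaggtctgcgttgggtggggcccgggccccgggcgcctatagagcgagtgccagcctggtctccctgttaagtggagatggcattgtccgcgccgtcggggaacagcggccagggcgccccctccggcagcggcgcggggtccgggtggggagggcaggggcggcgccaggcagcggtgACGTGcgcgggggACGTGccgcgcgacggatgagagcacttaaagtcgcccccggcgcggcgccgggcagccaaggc
Pfkfb3: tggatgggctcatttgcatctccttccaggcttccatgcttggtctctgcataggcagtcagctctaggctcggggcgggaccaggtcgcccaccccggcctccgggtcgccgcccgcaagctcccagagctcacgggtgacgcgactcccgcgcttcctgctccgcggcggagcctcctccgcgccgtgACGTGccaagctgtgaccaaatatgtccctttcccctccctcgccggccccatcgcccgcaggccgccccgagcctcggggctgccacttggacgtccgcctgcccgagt
Car9: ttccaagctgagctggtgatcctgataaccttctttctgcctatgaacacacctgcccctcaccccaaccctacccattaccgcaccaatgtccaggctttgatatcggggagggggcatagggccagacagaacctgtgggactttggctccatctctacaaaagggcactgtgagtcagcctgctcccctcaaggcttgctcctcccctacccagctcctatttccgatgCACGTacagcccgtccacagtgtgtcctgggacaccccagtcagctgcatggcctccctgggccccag
Ankrd37: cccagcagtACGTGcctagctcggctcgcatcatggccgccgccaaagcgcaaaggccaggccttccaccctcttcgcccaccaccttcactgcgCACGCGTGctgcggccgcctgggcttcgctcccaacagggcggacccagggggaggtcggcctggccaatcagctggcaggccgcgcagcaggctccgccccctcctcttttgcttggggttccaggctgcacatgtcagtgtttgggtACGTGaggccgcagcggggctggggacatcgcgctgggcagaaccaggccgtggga
Eno2: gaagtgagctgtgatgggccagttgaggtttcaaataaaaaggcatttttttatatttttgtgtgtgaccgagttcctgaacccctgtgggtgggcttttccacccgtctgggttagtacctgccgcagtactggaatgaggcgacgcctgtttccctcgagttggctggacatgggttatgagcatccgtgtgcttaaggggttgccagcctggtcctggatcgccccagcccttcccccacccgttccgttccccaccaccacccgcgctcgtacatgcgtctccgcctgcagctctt

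The 11 common glycolytic enzymes were lower rather than higher wherever they were called. In CNV against untreated libraries 3 fell and 0 rose (median log2 fold change -0.26), in BetP-Gel@Ran against CNV 2 fell and 0 rose (-0.36), and in BetP-Gel@Ran against untreated 9 fell and 0 rose (-0.61). As shares, 27.3%, 18.2% and 81.8% of them fell, where 22.1%, 8.27% and 18.1% of all genes did. In bulk tissue, fewer cells of a type and less RNA per cell cannot be told apart. The summed level of the 11 genes was 1311 ± 40.5 FPKM in BetP-Gel@Ran, 1749 ± 310 in CNV and 2397 ± 219 in untreated libraries. Aldoa alone made up 322, 335 and 794 FPKM of these sums, in the same order. The sums include the Gapdh row described below.

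Aldoa, which encodes the aldolase of muscle and most other tissues, was the most abundant enzyme in untreated libraries (ENSMUSG00000030695, mm10 chr7:126795234-126800751). It stood at 336, 326 and 304 FPKM in BetP-Gel@Ran libraries, at 329, 357 and 320.0 FPKM in CNV libraries and at 853, 820.5 and 708 FPKM in untreated libraries. The untreated libraries lay above all others without overlap, while the BetP-Gel@Ran and CNV libraries overlapped. Aldoa was 2.37-fold lower in CNV than in untreated libraries (log2 fold change -1.24 ± 0.10 SE, adjusted p = 2.22e-05). In BetP-Gel@Ran it was 2.46-fold lower than in untreated libraries (-1.29 ± 0.10, adjusted p = 3.52e-05), and its difference from CNV was -0.06 ± 0.10 (adjusted p = 0.712). Skeletal muscle markers moved alongside: all 12 tested fell in CNV and in BetP-Gel@Ran against untreated libraries, where 22.1% and 18.1% of all genes fell. Their summed level over 16 listed genes was 1483 to 1732 FPKM in BetP-Gel@Ran, 1012 to 1737 in CNV and 5733 to 6388 in untreated libraries. Of that list Tnnc2 was at 0 in every library. The part of muscle tissue in the Aldoa difference was not tested. The second Aldoa row held 0.571 to 1.83 FPKM and was not called.

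Gpi1, the isomerase of the second step, had 41.3 ± 2.06 FPKM in BetP-Gel@Ran, 47.6 ± 5.92 in CNV and 70.7 ± 8.33 in untreated libraries. It fell in CNV and in BetP-Gel@Ran against untreated libraries (adjusted p = 0.00346 and 0.00143), and both calls held whichever library was left out. Pkm, the pyruvate kinase of most tissues outside liver, had 189 ± 19.5 FPKM in BetP-Gel@Ran, 246 ± 50.6 in CNV and 354 ± 24.5 in untreated libraries. It fell 1.87-fold in BetP-Gel@Ran against untreated (log2 fold change -0.90 ± 0.15, adjusted p = 0.00239). Its fall in CNV (-0.54 ± 0.15, adjusted p = 0.0169) was lost without untreated replicate 1 (0.0549) or untreated replicate 2 (0.0538).

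Ldha and Pgk1, classical HIF targets within glycolysis, differed between the gel and CNV groups. Ldha, the lactate dehydrogenase subunit that favours lactate formation, stood at 198, 199.7 and 198 FPKM in BetP-Gel@Ran libraries, at 358, 367 and 246 FPKM in CNV libraries and at 305, 296 and 298 FPKM in untreated libraries. BetP-Gel@Ran libraries lay below both other groups, and CNV replicate 3 lay below all untreated libraries while the other CNV libraries lay above them. Ldha was 1.63-fold lower in BetP-Gel@Ran than in CNV (log2 fold change -0.68 ± 0.14, adjusted p = 0.0177) and 1.51-fold lower than in untreated libraries (-0.59 ± 0.14, adjusted p = 0.0105). In CNV against untreated libraries the difference was 0.09 ± 0.14 (adjusted p = 0.631), and without CNV replicate 3 it was 0.28 (adjusted p = 0.0155).

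Pgk1, which makes ATP in the pathway, had 138, 137 and 132 FPKM in BetP-Gel@Ran libraries, 246, 292 and 159 FPKM in CNV libraries and 235, 229.6 and 202 FPKM in untreated libraries. It repeated the order of Ldha, with BetP-Gel@Ran below both other groups and CNV replicate 3 below the untreated libraries. Pgk1 fell 1.71-fold against CNV (log2 fold change -0.73 ± 0.19, adjusted p = 0.0345), a call lost in 7 of the 9 fits that left out a library. Against untreated libraries it fell 1.64-fold (-0.71 ± 0.19, adjusted p = 0.0177), a call lost without BetP-Gel@Ran replicate 3, untreated replicate 1 or untreated replicate 2 (0.0532 to 0.0587).

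Tpi1, Pgam1 and Eno1, enzymes of the middle of the pathway, fell in BetP-Gel@Ran against untreated libraries by 0.65, 0.59 and 0.61 on the log2 scale, with adjusted p = 0.00319, 0.0164 and 0.0198. None passed the test in CNV against untreated libraries, where their log2 fold changes were -0.31, -0.18 and -0.26, although Tpi1 passed without CNV replicate 2 (adjusted p = 0.0408). With a library left out, the falls in BetP-Gel@Ran were kept in all fits for Tpi1, lost in 2 for Pgam1 and lost in 4 for Eno1. Hk1, the housekeeping hexokinase, fell by 0.55 in BetP-Gel@Ran against untreated libraries (adjusted p = 0.0442), which was lost in 8 of 9 fits with a library left out (0.0572 without CNV replicate 3). It stood at 16.2 FPKM in untreated replicate 3 and at 29.4 and 27.1 FPKM in the other untreated libraries. Without that library Hk1 was lower in CNV too (-0.58, adjusted p = 0.0017), as was Eno1 (-0.44, adjusted p = 0.042). Pfkl, the liver-type phosphofructokinase, had 15.1 ± 0.50 FPKM in BetP-Gel@Ran, 23.7 ± 5.85 in CNV and 21.1 ± 3.65 in untreated libraries and was called in no comparison. Without CNV replicate 3 it fell in BetP-Gel@Ran against CNV (-0.80, adjusted p = 0.0043) and against untreated libraries (-0.45, adjusted p = 0.018).

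The Gapdh row (ENSMUSG00000057666, mm10 chr6:125161715-125166467) cannot be read as the level of this abundant housekeeping enzyme. It held 0.939, 0.992 and 0.940 FPKM in BetP-Gel@Ran libraries, 2.61, 31.6 and 1.14 FPKM in CNV libraries and 0.870, 1.06 and 1.12 FPKM in untreated libraries. Tpi1 and Pgk1, the enzymes of the steps before and after it, stood at 132 to 292 FPKM in the 9 libraries, and CNV replicate 2 alone set the mean of its group. Gapdh has many near-identical copies in the mouse genome, and it also overlaps Iffo1 on the opposite strand, which the library kit does not separate. Copies were listed beside other enzymes as well: Tpi-rs11 averaged 38.1 FPKM over the 9 libraries and Eno1b 14.1 FPKM, so Tpi1 and Eno1 may lack reads given to them.

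**Figure D2:**
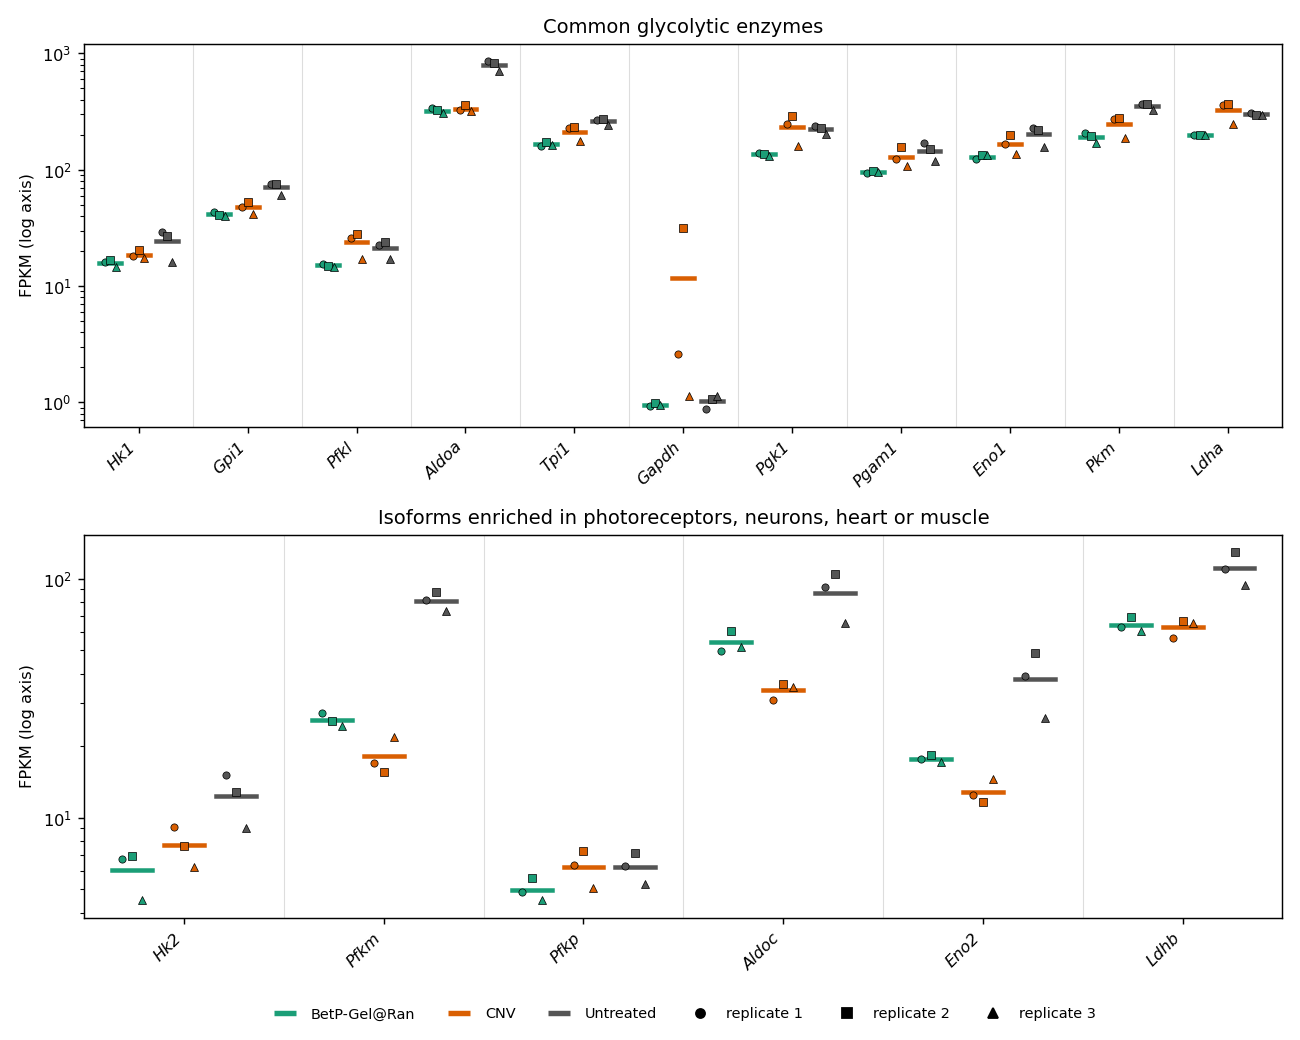
FPKM (log axis) of the common glycolytic enzymes (upper panel) and of the isoforms enriched in photoreceptors, neurons, heart or muscle (lower panel) in each of the 9 libraries; marker shapes give the replicate number and horizontal lines the group means. Aldoa and Pfkm in untreated libraries lie above all libraries of both other groups, and the Gapdh row lies near 1 FPKM except in CNV replicates 1 and 2.

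Of the 6 isoforms enriched in photoreceptors, neurons, heart or muscle, 5 fell in CNV against untreated libraries (83.3%, where 22.1% of all genes fell; median log2 fold change -1.05) and the same 5 genes fell in BetP-Gel@Ran against untreated libraries (where 18.1% of all genes fell; median -0.84). In BetP-Gel@Ran against CNV 2 of the 6, Pfkm and Aldoc, rose (33.3%, where 5.81% of all genes rose). Pfkp, the platelet-type phosphofructokinase, was called in no comparison and had 4.98 ± 0.54 FPKM in BetP-Gel@Ran, 6.20 ± 1.09 in CNV and 6.22 ± 0.90 in untreated libraries.

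Pfkm, the muscle phosphofructokinase that is also expressed in brain and retina, showed the greatest difference from untreated libraries among the members (ENSMUSG00000033065, mm10 chr15:98092589-98132451). It stood at 27.3, 25.4 and 24.2 FPKM in BetP-Gel@Ran libraries, at 16.9, 15.6 and 21.8 FPKM in CNV libraries and at 81.3, 87.7 and 73.4 FPKM in untreated libraries. The 3 groups did not overlap, and CNV replicate 3 was the CNV library nearest to the others. Pfkm was 4.47-fold lower in CNV than in untreated libraries (log2 fold change -2.11 ± 0.12, adjusted p = 8.0e-06) and 3.15-fold lower in BetP-Gel@Ran than in untreated libraries (-1.62 ± 0.12, adjusted p = 4.07e-05). Its rise in BetP-Gel@Ran against CNV was 1.42-fold (0.49 ± 0.12, adjusted p = 0.0301) and was lost in 5 of the 9 fits with a library left out.

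Eno2, the neuron-specific enolase also found in photoreceptors, had 17.5, 18.3 and 17.1 FPKM in BetP-Gel@Ran libraries, 12.4, 11.6 and 14.4 FPKM in CNV libraries and 39.0, 48.6 and 26.0 FPKM in untreated libraries. Untreated replicate 3 was the lowest of its group and still above every library of the other groups. Eno2 was 2.96-fold lower in CNV (log2 fold change -1.46 ± 0.19, adjusted p = 0.000314) and 2.15-fold lower in BetP-Gel@Ran (-1.02 ± 0.19, adjusted p = 0.00363) than in untreated libraries. The gel and CNV groups did not overlap, yet the difference of 0.44 ± 0.19 did not pass the test (adjusted p = 0.142).

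Aldoc, the aldolase of brain and retina, had 49.5, 60.6 and 51.9 FPKM in BetP-Gel@Ran libraries, 31.0, 36.3 and 35.1 FPKM in CNV libraries and 91.8, 104 and 65.0 FPKM in untreated libraries. The 3 groups did not overlap. It was 2.55-fold lower in CNV than in untreated libraries (log2 fold change -1.30 ± 0.16, adjusted p = 0.000257), 1.61-fold lower in BetP-Gel@Ran than in untreated (-0.66 ± 0.16, adjusted p = 0.0128) and 1.58-fold higher in BetP-Gel@Ran than in CNV (0.64 ± 0.16, adjusted p = 0.0321). The last of these was lost in 5 of the 9 fits with a library left out.

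Ldhb, the lactate dehydrogenase subunit of heart and oxidative tissue, had 64.0 ± 4.48 FPKM in BetP-Gel@Ran, 62.7 ± 5.30 in CNV and 111 ± 17.3 in untreated libraries. It fell by 0.81 on the log2 scale in CNV (adjusted p = 0.000665) and by 0.77 in BetP-Gel@Ran (adjusted p = 0.00162) against untreated libraries, and its difference between the gel and CNV groups was 0.03 ± 0.12. Hk2, the inducible hexokinase of muscle and photoreceptors and itself a HIF target, had 6.04 ± 1.34 FPKM in BetP-Gel@Ran, 7.64 ± 1.48 in CNV and 12.3 ± 3.05 in untreated libraries. Its fall in BetP-Gel@Ran against untreated libraries (-0.91 ± 0.20, adjusted p = 0.0089) held in all fits with a library left out. Its fall in CNV (-0.61 ± 0.20, adjusted p = 0.0362) was lost without CNV replicate 2, CNV replicate 3, untreated replicate 1 or untreated replicate 2 (0.0829 to 0.127).

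Markers of rods, neurons and muscle moved in both comparisons with untreated libraries. Of all genes, 22.1% fell in CNV and 18.1% in BetP-Gel@Ran against untreated libraries, and 5.81% rose in BetP-Gel@Ran against CNV. Of 18 rod photoreceptor markers 15 fell in CNV and 15 in BetP-Gel@Ran against untreated libraries, and their summed level was 2592 to 3413 FPKM in BetP-Gel@Ran, 1989 to 2456 in CNV and 4929 to 6031 in untreated libraries. Of 10 markers of ganglion cells and other neurons 9 fell in both comparisons with untreated libraries and 5 rose in BetP-Gel@Ran against CNV, with sums of 179 to 186 FPKM in BetP-Gel@Ran, 89.2 to 113 in CNV and 265 to 447 in untreated libraries. Of 8 tested cone markers 3 fell in CNV and 1 in BetP-Gel@Ran against untreated libraries, a share of 37.5% and 12.5%, and the sum over 10 cone genes was 526 to 626 FPKM in BetP-Gel@Ran, 358 to 531 in CNV and 709 to 1119 in untreated libraries. Only 1 of the 18 rod markers rose in BetP-Gel@Ran against CNV (5.56%), and 0 fell. Of the 8 cone and 12 muscle markers tested, 0 were called in that comparison, where 14.1% of all genes were. No listed marker of rods, cones or neurons was at 0 in every library, and the part of these cell types in the isoform differences was not tested.

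Within families, the balance of isoforms differed between groups as well as their level. Pfkm made up 56.1 ± 0.98% of the summed FPKM of the phosphofructokinases Pfkl, Pfkm and Pfkp in BetP-Gel@Ran, 38.2 ± 10.1% in CNV and 74.8 ± 1.63% in untreated libraries, and the groups did not overlap. Pfkl was at 33.0 ± 0.64% in BetP-Gel@Ran, 48.9 ± 8.79% in CNV and 19.5 ± 1.46% in untreated libraries, and Pfkp at 10.9 ± 1.07% in BetP-Gel@Ran, 12.9 ± 1.33% in CNV and 5.73 ± 0.22% in untreated libraries. Eno2 was 12 ± 0.54% of Eno1 and Eno2 in BetP-Gel@Ran, 7.32 ± 2.07% in CNV and 15.6 ± 2.06% in untreated libraries. For lactate dehydrogenase, Ldhb was 24.3 ± 1.20% in BetP-Gel@Ran, 16.6 ± 3.82% in CNV and 26.9 ± 3.18% in untreated libraries. Aldoc was 14.4 ± 1.41% of aldolase in BetP-Gel@Ran, 9.24 ± 0.64% in CNV and 9.80 ± 1.44% in untreated libraries, where both aldolases were highest. Shares were not fitted and are given as a description; an exact permutation test of 3 against 3 libraries cannot go below p = 0.10.

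**Figure D3:**
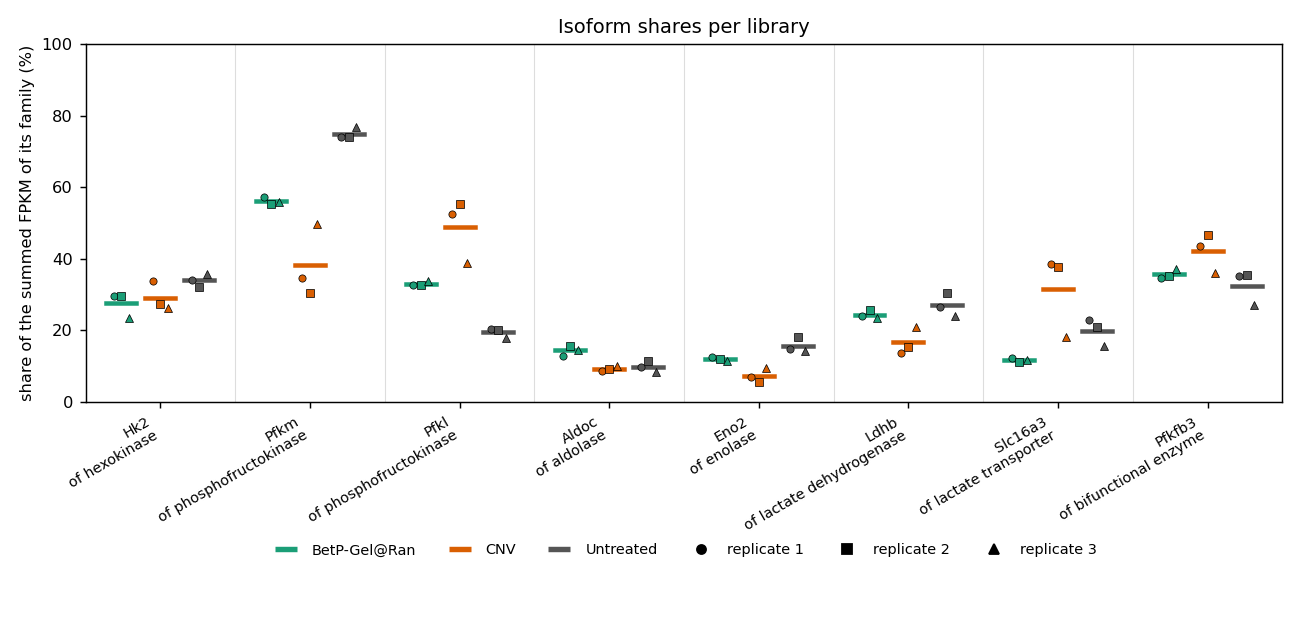
Share of 1 isoform in the summed FPKM of its family (percent) in each library, with group means as lines and replicate numbers as marker shapes. The share of Pfkm is 30.5 to 49.6% in CNV libraries, below BetP-Gel@Ran (55.3 to 57.2%) and untreated libraries (73.9 to 76.7%), and CNV replicate 3 is the CNV library nearest to both other groups for Pfkm, Pfkl and Ldhb.

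Of the 4 transporters, Slc2a1 rose in CNV against untreated libraries (25%, where 22.5% of all genes rose). Slc2a1 and Slc16a3 fell in BetP-Gel@Ran against CNV (50%, where 8.27% of all genes fell). Slc2a1, the glucose transporter of the blood-retina barrier and a HIF target, had 25.2, 24.4 and 19.5 FPKM in BetP-Gel@Ran libraries, 38.4, 48.6 and 29.5 FPKM in CNV libraries and 22.9, 28.4 and 29.1 FPKM in untreated libraries. CNV libraries lay above both other groups, by a narrow margin for CNV replicate 3. Slc2a1 was 1.69-fold lower in BetP-Gel@Ran than in CNV (log2 fold change -0.71 ± 0.18, adjusted p = 0.0315). Its rise in CNV was 1.45-fold (0.50 ± 0.18, adjusted p = 0.0436), and this call was lost in 7 of the 9 fits with a library left out (0.0564 without untreated replicate 3). The gel comparison was lost in 5 fits, none of them without CNV replicate 3 or untreated replicate 3.

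Slc16a3 encodes a lactate exporter of glycolytic cells that HIF induces (ENSMUSG00000025161, mm10 chr11:120948480-120960868), and its window above holds 2 ACGTG matches. It stood at 2.07, 1.88 and 1.85 FPKM in BetP-Gel@Ran libraries, at 9.46, 11.7 and 3.72 FPKM in CNV libraries and at 4.32, 4.62 and 3.90 FPKM in untreated libraries. BetP-Gel@Ran libraries were below all others, and CNV replicate 3 was below the untreated libraries while the other CNV libraries were well above them. Slc16a3 was 4.29-fold lower in BetP-Gel@Ran than in CNV (log2 fold change -1.55 ± 0.30, adjusted p = 0.0172), which was lost without CNV replicate 1, CNV replicate 2, BetP-Gel@Ran replicate 2 or BetP-Gel@Ran replicate 3 (0.0501 to 0.063). The difference between CNV and untreated libraries, 0.70 ± 0.30, did not pass the test (adjusted p = 0.0913), and without CNV replicate 3 it was 1.13 (adjusted p = 8.02e-05). Against untreated libraries BetP-Gel@Ran differed by -0.85 ± 0.30 (adjusted p = 0.0595), and without CNV replicate 3, which enters only through the shared spread, the adjusted p was 0.000421. Slc16a1, the widespread lactate carrier, was called in no comparison, so that Slc16a3 was 11.7 ± 0.57% of the summed FPKM of the pair in BetP-Gel@Ran, 31.4 ± 11.5% in CNV and 19.8 ± 3.71% in untreated libraries. Slc2a3, the neuronal glucose transporter, had 0.696 to 2.32 FPKM over all libraries and was not called.

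Pfkfb3 and Pfkfb4, bifunctional enzymes that set the level of an allosteric activator of phosphofructokinase, rose in both comparisons with untreated libraries. Pfkfb3, a HIF target known for its role in sprouting endothelium (ENSMUSG00000026773, mm10 chr2:11471433-11554077), stood at 5.12, 4.48 and 5.54 FPKM in BetP-Gel@Ran libraries, at 6.09, 6.69 and 5.39 FPKM in CNV libraries and at 3.75, 3.37 and 2.58 FPKM in untreated libraries. All libraries of both groups lay above all untreated ones. Pfkfb3 was 1.87-fold higher in CNV (log2 fold change 0.74 ± 0.12, adjusted p = 0.00105) and 1.56-fold higher in BetP-Gel@Ran (0.52 ± 0.12, adjusted p = 0.00991) than in untreated libraries, and both calls held whichever library was left out. Pfkfb4 had 9.11 ± 0.76 FPKM in BetP-Gel@Ran, 8.38 ± 1.05 in CNV and 6.70 ± 0.47 in untreated libraries. It rose by 0.39 ± 0.10 in BetP-Gel@Ran (adjusted p = 0.0138), lost without BetP-Gel@Ran replicate 3 (0.0523) or untreated replicate 2 (0.0519). Its rise in CNV, 0.28 ± 0.10 (adjusted p = 0.0418), was lost in 7 of the 9 fits with a library left out (0.121 without CNV replicate 3 and 0.0564 without untreated replicate 3).

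Pdk1 and Pdk3, kinases that block the entry of pyruvate into the mitochondrion's oxidation and are HIF targets, were called in no comparison. Pdk1 had 10.5 ± 0.47 FPKM in BetP-Gel@Ran, 11.9 ± 1.77 in CNV and 10.7 ± 0.93 in untreated libraries, and Pdk3 had 5.96 ± 0.33, 7.56 ± 1.18 and 6.30 ± 0.46 FPKM in these groups. Without CNV replicate 3, Pdk3 was higher in CNV than in untreated libraries (0.34, adjusted p = 0.0133) and lower in BetP-Gel@Ran than in CNV (-0.41, adjusted p = 0.0127).

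None of the 4 genes of the HIF system was called against untreated libraries, where 44.6% of all genes were called in CNV and 34.2% in BetP-Gel@Ran. In BetP-Gel@Ran against CNV 2 rose (50%, where 5.81% of all genes rose). Hif1a, the widespread oxygen-regulated subunit, had 28.9 ± 3.87 FPKM in BetP-Gel@Ran, 37.0 ± 6.20 in CNV and 30.8 ± 0.68 in untreated libraries. Its mRNA was called in no comparison (adjusted p = 0.148 in CNV against untreated libraries), and mRNA does not report the protein, which is controlled by degradation. Without CNV replicate 3, Hif1a was lower in BetP-Gel@Ran than in CNV (-0.43, adjusted p = 0.0435). Egln1, the main oxygen-sensing prolyl hydroxylase, stood at 17.9 to 23.3 FPKM across the 9 libraries and was not called.

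Epas1, the HIF subunit of endothelium and some other cells, had 52.2, 43.3 and 48.1 FPKM in BetP-Gel@Ran libraries, 26.0, 27.3 and 39.8 FPKM in CNV libraries and 39.0, 39.1 and 35.9 FPKM in untreated libraries. CNV replicate 3 sat just above the untreated libraries, the other CNV libraries sat below them, and every BetP-Gel@Ran library was above all others. Epas1 was 1.54-fold higher in BetP-Gel@Ran than in CNV (log2 fold change 0.63 ± 0.15, adjusted p = 0.0258), a call lost in 5 of the 9 fits with a library left out. In CNV against untreated libraries its difference was -0.31 ± 0.15 (adjusted p = 0.115), and without CNV replicate 3 it was -0.50 (adjusted p = 0.003).

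Egln3, a prolyl hydroxylase that HIF itself induces, was the most abundant gene of the HIF system here, with 197, 180.0 and 189 FPKM in BetP-Gel@Ran libraries, 123, 126 and 151 FPKM in CNV libraries and 182, 159 and 148 FPKM in untreated libraries. BetP-Gel@Ran and CNV libraries did not overlap, whereas CNV replicate 3 lay inside the untreated range. Egln3 was 1.42-fold higher in BetP-Gel@Ran than in CNV (log2 fold change 0.51 ± 0.11, adjusted p = 0.0196; lost in 4 of 9 fits with a library left out). In CNV against untreated libraries it differed by -0.29 ± 0.11 (adjusted p = 0.0508), and it passed the test without CNV replicate 3 (adjusted p = 0.0145) or untreated replicate 3 (0.0384).

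Of the 7 HIF targets outside glycolysis, 3 rose and 0 fell in CNV against untreated libraries, 1 rose and 2 fell in BetP-Gel@Ran against CNV, and 2 rose and 2 fell in BetP-Gel@Ran against untreated libraries. The shares that rose were 42.9%, 14.3% and 28.6%, where 22.5%, 5.81% and 16.1% of all genes rose, and those that fell were 0%, 28.6% and 28.6%, where 22.1%, 8.27% and 18.1% did. Car9, a cell-surface carbonic anhydrase widely used as a hypoxia marker (ENSMUSG00000028463, mm10 chr4:43506966-43513729), had 2.97, 4.23 and 3.71 FPKM in BetP-Gel@Ran libraries, 3.59, 5.29 and 4.65 FPKM in CNV libraries and 1.64, 2.57 and 2.02 FPKM in untreated libraries. Every BetP-Gel@Ran and CNV library lay above every untreated one. Car9 was 2.18-fold higher in CNV (log2 fold change 0.84 ± 0.15, adjusted p = 0.00209), which held whichever library was left out. In BetP-Gel@Ran it was 1.75-fold higher than in untreated libraries (0.60 ± 0.15, adjusted p = 0.0163), a call lost without BetP-Gel@Ran replicate 2, BetP-Gel@Ran replicate 3 or untreated replicate 1 (0.0529 to 0.0606).

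Ankrd37, a small ankyrin repeat gene strongly induced by HIF (ENSMUSG00000050914, mm10 chr8:45996902-46005707), had 3.23, 2.99 and 3.02 FPKM in BetP-Gel@Ran libraries, 5.80, 6.41 and 3.69 FPKM in CNV libraries and 1.88, 2.96 and 3.10 FPKM in untreated libraries. CNV libraries lay above both other groups, and BetP-Gel@Ran and untreated libraries overlapped. Ankrd37 was 2-fold higher in CNV than in untreated libraries (log2 fold change 0.78 ± 0.18, adjusted p = 0.00707), in all fits with a library left out. Its difference between BetP-Gel@Ran and CNV, -0.60 ± 0.18, did not pass the test (adjusted p = 0.0555), and without CNV replicate 3 it was -0.80 (adjusted p = 0.00697). The gene overlaps Ufsp2 on the opposite strand, which had a mean of 576 reads per library beside 101 for Ankrd37, so its level is uncertain.

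Ndufa4l2, a mitochondrial protein that HIF induces and that lowers oxygen use, varied widely within the CNV group (ENSMUSG00000040280, mm10 chr10:127514967-127517154). It had 9.38, 12.1 and 13.7 FPKM in BetP-Gel@Ran libraries, 38.8, 50.4 and 12.6 FPKM in CNV libraries and 12.8, 9.21 and 11.7 FPKM in untreated libraries. CNV replicate 3 was within the range of the untreated libraries, and the other CNV libraries were over 3 times as high. The rise in CNV (log2 fold change 1.32 ± 0.43, adjusted p = 0.034) was lost in 6 of the 9 fits with a library left out, and without CNV replicate 3 the adjusted p was 0.000113, and without untreated replicate 3 it was 0.0625. It overlaps Shmt2 on the opposite strand, with 620 mean reads beside 374 for Ndufa4l2, and its rise was not called by limma voom on recovered reads (adjusted p = 0.104).

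Ddit4, a stress gene that restrains growth signalling, had 28.6, 24.8 and 26.8 FPKM in BetP-Gel@Ran libraries, 62.5, 47.7 and 36.4 FPKM in CNV libraries and 49.3, 54.0 and 42.2 FPKM in untreated libraries. BetP-Gel@Ran libraries lay below all others, and CNV and untreated libraries overlapped. It was 1.83-fold lower in BetP-Gel@Ran than in CNV (log2 fold change -0.81 ± 0.17, adjusted p = 0.0207; lost in 4 of 9 fits with a library left out). Against untreated libraries it was 1.81-fold lower (-0.83 ± 0.17, adjusted p = 0.00636), in every such fit. Adm, the vasoactive peptide adrenomedullin, fell by 0.50 in BetP-Gel@Ran against CNV (adjusted p = 0.0318; lost in 4 fits), with 2.91 ± 0.42 FPKM in BetP-Gel@Ran, 4.58 ± 0.97 in CNV and 3.82 ± 0.09 in untreated libraries.

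Ndrg1, a stress-response gene of epithelia and myelinating glia, had 28.4 ± 1.94 FPKM in BetP-Gel@Ran, 19.8 ± 1.64 in CNV and 23.0 ± 2.56 in untreated libraries. It was 1.43-fold higher in BetP-Gel@Ran than in CNV (log2 fold change 0.50 ± 0.10, adjusted p = 0.0154; lost in 3 fits) and 1.24-fold higher than in untreated libraries (0.30 ± 0.10, adjusted p = 0.0406; lost in 6 fits, 0.0872 without untreated replicate 3). Bnip3, a mitophagy receptor, had 20.8 ± 2.75 FPKM in BetP-Gel@Ran, 27.0 ± 7.23 in CNV and 36.3 ± 2.70 in untreated libraries. It fell 1.75-fold in BetP-Gel@Ran against untreated libraries (-0.78 ± 0.17, adjusted p = 0.00724, in all fits with a library left out). In CNV the difference of -0.45 ± 0.17 did not pass the test (adjusted p = 0.0571), and without CNV replicate 2 it was -0.64 (adjusted p = 0.00568). The HIF targets held both directions within each comparison that involved BetP-Gel@Ran.

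**Figure D4:**
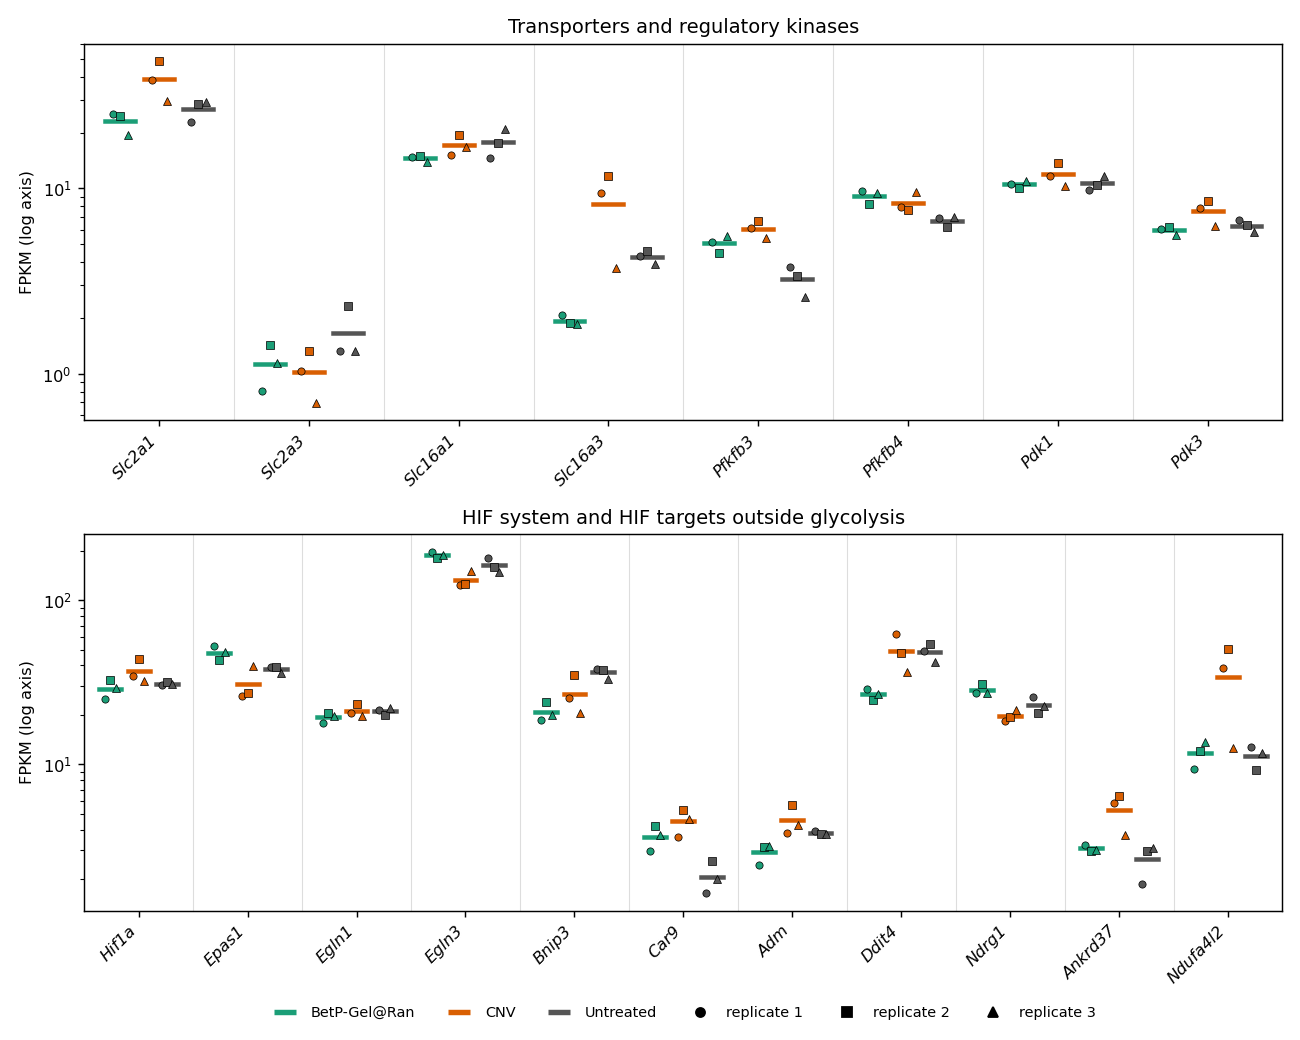
FPKM (log axis) of transporters and regulatory kinases (upper panel) and of the HIF system and HIF targets outside glycolysis (lower panel) in each library, with group means as lines and replicate numbers as marker shapes. CNV replicate 3 lies apart from the other CNV libraries for Slc16a3 (3.72 against 9.46 and 11.7 FPKM) and Ndufa4l2 (12.6 against 38.8 and 50.4 FPKM), and all CNV and BetP-Gel@Ran libraries lie above the untreated ones for Pfkfb3 and Car9.

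The spread inside the CNV group was uneven over the members. CNV replicate 3 was the lowest CNV library in 11 of the 12 rows of common enzymes, in 3 of 4 transporters, in 3 of 4 kinases and in 4 of 7 HIF targets, but in 2 of the 6 isoforms. CNV replicate 2 was the highest in 28 of the 37 rows (75.7%), compared with 34.7% of all genes tested. Without CNV replicate 3, Pkm, Tpi1, Pgam1, Pfkl, Hif1a, Bnip3, Ndufa4l2, Pdk3 and Ankrd37 joined the members that were lower in BetP-Gel@Ran than in CNV. In that limma fit the adjusted p was 0.00972 for Pkm, 0.00701 for Tpi1, 0.0374 for Pgam1, 0.039 for Bnip3 and 0.000533 for Ndufa4l2. Levels of other cell types differed between these libraries too: the summed level of 10 macrophage and microglia markers was 2023, 2371 and 1603 FPKM in CNV replicates 1, 2 and 3 and that of 9 neutrophil markers was 449, 783 and 328 FPKM, both lowest in replicate 3. In the same order, the sums were 1179, 1012 and 1737 FPKM for 16 skeletal muscle genes, 718, 1062 and 1097 FPKM for 8 pigment epithelium genes, 73.0, 14.4 and 104 FPKM for 10 lens genes, and 9161, 10160.3 and 10121 FPKM for 8 corneal and surface epithelium genes. The sums for muscle, pigment epithelium and lens were thus highest in replicate 3. For pigment epithelium this came from Ttr, with 521, 744 and 826 FPKM in CNV replicates 1, 2 and 3. Most of the other pigment epithelium genes were highest in replicate 2, such as Rpe65 (58.3, 96.4 and 92.2 FPKM) and Rgr (87.7, 144 and 116 FPKM). Genes within the corneal sum went both ways. In the same order, Krt12 had 1391, 1383 and 2246 FPKM, Aldh3a1 1245, 1513 and 2704 FPKM and Krt14 1869, 2252 and 553 FPKM. In the other groups the macrophage sum was 878 to 1116 FPKM in BetP-Gel@Ran and 436 to 469 FPKM in untreated libraries. All 10 macrophage markers rose in CNV and in BetP-Gel@Ran against untreated libraries, where 22.5% and 16.1% of all genes rose. In BetP-Gel@Ran against CNV 8 fell, where 8.27% of all genes did. All 6 tested neutrophil markers rose in CNV against untreated libraries and fell in BetP-Gel@Ran against CNV, beside the same shares of all genes. In BetP-Gel@Ran against untreated libraries 1 of the 6 rose and 1 fell. The sum over 9 neutrophil genes was 52.8 ± 62.8 FPKM in BetP-Gel@Ran, 520 ± 236 in CNV and 30.6 ± 7.41 in untreated libraries. Of 8 corneal and surface epithelium markers, 4 fell and 1 rose in CNV against untreated libraries, where 22.1% and 22.5% of all genes did. In BetP-Gel@Ran against CNV 4 rose and 1 fell, where 5.81% and 8.27% did. Against untreated libraries 2 fell and 0 rose in BetP-Gel@Ran, where 18.1% and 16.1% did. Krt12 averaged 3516, 1673 and 4677 FPKM and Krt14 276, 1558 and 295 FPKM in BetP-Gel@Ran, CNV and untreated libraries. None of the macrophage, neutrophil or corneal markers was at 0 in every library, and the part of these cells in the members' differences was not tested.

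Other genes of the same pathways were read from lists that hold no member. Of 11 tested muscle and tissue-specific glycolysis genes, 2 rose and 7 fell in CNV against untreated libraries, 1 rose and 4 fell in BetP-Gel@Ran against CNV, and 0 rose and 7 fell in BetP-Gel@Ran against untreated libraries. The shares that fell were 63.6%, 36.4% and 63.6%, where 22.1%, 8.27% and 18.1% of all genes fell. Eno3, the muscle enolase, had 78.2 ± 13.1 FPKM in BetP-Gel@Ran, 65.5 ± 21.8 in CNV and 400 ± 12.2 in untreated libraries (log2 fold change -2.64 ± 0.20 in CNV, adjusted p = 2.29e-05; -2.35 ± 0.20 in BetP-Gel@Ran, adjusted p = 8.76e-05). Pgam2 and Pygm, the mutase and glycogen phosphorylase of muscle, fell by 2.47 and 2.56 in CNV and by 2.06 and 2.35 in BetP-Gel@Ran on the log2 scale against untreated libraries. These falls were larger than that of Pfkm in both comparisons. Hk3, a hexokinase of myeloid cells, rose by 1.56 in CNV against untreated libraries (adjusted p = 0.000351) and fell by 1.16 in BetP-Gel@Ran against CNV (adjusted p = 0.0117).

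Of 13 genes that govern the entry of pyruvate into mitochondria, 10 fell and 0 rose in CNV and 9 fell and 0 rose in BetP-Gel@Ran against untreated libraries, while 2 rose in BetP-Gel@Ran against CNV. The falls were 76.9% and 69.2% of the list, where 22.1% and 18.1% of all genes fell. The rises were 15.4% of the list, where 5.81% of all genes rose. Pdk4, the kinase induced by fasting and fatty acids, had 0.861, 0.631 and 0.989 FPKM in BetP-Gel@Ran libraries, 1.19, 1.02 and 1.22 FPKM in CNV libraries and 13.1, 15.2 and 17.6 FPKM in untreated libraries. It was thus low in every library of both groups and high in every untreated one. Its log2 fold change against untreated libraries was -2.92 ± 0.12 in CNV (adjusted p = 1.39e-06) and -3.15 ± 0.12 in BetP-Gel@Ran (adjusted p = 8.14e-07). This stands beside Pdk1 and Pdk3, members of the same family that were called in no comparison.

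Of 27 tested further HIF targets and HIF regulators, 10 rose and 5 fell in CNV against untreated libraries, 2 rose and 8 fell in BetP-Gel@Ran against CNV, and 3 rose and 8 fell in BetP-Gel@Ran against untreated libraries. The shares that rose were 37.0%, 7.41% and 11.1%, where 22.5%, 5.81% and 16.1% of all genes rose, and those that fell were 18.5%, 29.6% and 29.6%, where 22.1%, 8.27% and 18.1% did. Car12, a relative of Car9, rose by 1.16 in CNV (adjusted p = 0.000503) and fell by 0.89 in BetP-Gel@Ran against CNV (adjusted p = 0.013; lost in 2 fits with a library left out). Hmox1, the haem-degrading enzyme, rose by 2.48 in CNV and by 1.26 in BetP-Gel@Ran against untreated libraries, the second of which was lost in 5 fits with a library left out. In the other direction Pygl, the liver glycogen phosphorylase, fell by 1.09 in CNV (adjusted p = 3.38e-05) and by 0.50 in BetP-Gel@Ran (adjusted p = 0.00346) against untreated libraries.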

How the data were processed

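Poly-T selected mRNA from flat mounts was made into libraries with a NEBNext Ultra kit, per the labels' protocols, which does not mark the strand. Per the submitters' processing notes, HTSeq 0.6.0 was used with the mm10 build. Which aligner came before it is not given in the sources read. The deposited unit is FPKM, computed by the authors for 54532 genes. In each library FPKM times gene length stepped in whole reads for 100% of values (tolerance 0.05), so read totals were recovered; intervals of counting error are not given.

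From the deposited FPKM, log2(FPKM + 1) was fitted with limma 3.58.1 (trend and robust options, statmod 1.5.0, R 4.3.3), with all 9 libraries in 1 fit, no covariate and genes of at least 1 FPKM in at least 3 libraries (14086). Fold changes are on that scale, with their SE, and understate the change of low genes; fold values are ratios of mean FPKM. P-values are two-sided and Benjamini-Hochberg adjusted within each comparison over all genes tested. The scripts were tested on simulated data. Same-group libraries differed beyond counting error (chi-square per gene 8.34 to 43.7). Coordinates are those of the deposited table.

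The members and gene lists were chosen with earlier results of these data known. All members are named; from each other pathway list up to 4 called genes with the largest rise and fall per comparison, and up to 3 abundant markers per list, could be named, and the text draws on these; some are not reported here. Alternatives were a pseudocount of 0.1, no filter, quantile normalization, FPKM divided by its sum, limma voom on recovered reads, a block for the replicate number, leaving out each library and, chosen after seeing the data, FPKM relative to each library's own read total.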

Additional observations from a re-analysis of the deposited data

How the results depend on the processing

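No member difference that passed the test changed sign under any alternative tried. Without the filter on low values, 3 members were higher in CNV against untreated libraries (6 with it), and in BetP-Gel@Ran against CNV 2 members were higher and 2 lower (5 and 6), with 263 genes higher and 590 lower (818 and 1165). With FPKM divided by its sum, 1555 genes were lower in BetP-Gel@Ran against untreated libraries (2548). The cause of these changes was not tested. The labels do not say that replicate numbers pair the samples. Correlations of same-numbered deviations were -0.148 to 0.0841 over 9 pairs (0 over 0.1). With 3 libraries in a group, these cannot decide whether the numbers mark pairs. With the replicate number as a block, 523 genes were higher in BetP-Gel@Ran against CNV, and of 111 member differences 7 gained and 3 lost a call. With each library left out, members higher and lower ranged over 3 to 8 and 6 to 11 in CNV against untreated libraries, 0 to 6 and 0 to 15 in BetP-Gel@Ran against CNV, and 1 to 5 and 12 to 17 in BetP-Gel@Ran against untreated libraries. Genes ranged over 2593 to 3127 and 2513 to 3075, 126 to 1457 and 320 to 1758, and 1438 to 2482 and 1760 to 2647 in the same comparisons. The higher share among called genes was 50.4% in CNV against untreated libraries and 62.3% relative to each library's own read total (49.9% with the replicate block). In BetP-Gel@Ran against untreated libraries it was 47.1%, and 63.0% with FPKM divided by its sum or 58.8% relative to own totals or 54.1% with quantile normalization. The majority of called genes was thus lower in the fit used here and higher under these alternatives, which called different numbers of genes. In BetP-Gel@Ran against CNV the higher share was 41.3%, and 30.8% without the filter or 33.5% relative to own totals. No scaling moved the median log2 fold change of all genes by over 0.1. Beyond the members named above, leaving out 1 library added calls for Slc16a3 and Adm in BetP-Gel@Ran against untreated libraries (without CNV replicate 2, adjusted p = 0.0307 and 0.0359), Epas1 (without CNV replicate 3, 0.0173) Slc16a1 (without untreated replicate 1, 0.0468) and Pfkl (without untreated replicate 3, 0.0398). In BetP-Gel@Ran against CNV it added Eno2 and Pfkl (without untreated replicate 3, 0.0327 and 0.0463) and Ankrd37 (without untreated replicate 1, 0.0467). Depth limits the second Aldoa row, Ankrd37, Gapdh, Car9, Adm and Slc2a3 most, whose lowest libraries held 8 to 94 reads.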

Other observations

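Bpgm, the red-cell enzyme that makes the regulator of haemoglobin's oxygen affinity from a glycolytic intermediate, followed no group. It stood at 18.8, 25.1 and 37.9 FPKM in BetP-Gel@Ran libraries, at 28.1, 56.4 and 29.2 FPKM in CNV libraries and at 24.7, 23.2 and 26.4 FPKM in untreated libraries, and was called in no comparison. The beta-globin gene Hbb-bs was highest in the same libraries of the gel and CNV groups, with 1882, 3516 and 6832 FPKM in BetP-Gel@Ran, 3438, 11357 and 4343 FPKM in CNV and 2086, 1936 and 3108 FPKM in untreated libraries. Both genes were picked after their values were seen.

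Slc16a8, the lactate transporter of the pigment epithelium, had 16.2 ± 2.40 FPKM in BetP-Gel@Ran, 23.9 ± 4.25 in CNV and 32.2 ± 0.35 in untreated libraries. It fell by 0.53 on the log2 scale in BetP-Gel@Ran against CNV (limma, adjusted p = 0.0338) and by 0.96 against untreated libraries (adjusted p = 0.001). Of 8 pigment epithelium markers 1 fell in BetP-Gel@Ran against untreated libraries (12.5%, where 18.1% of all genes fell). Hkdc1, a hexokinase-like gene picked after its values were seen, had 0.455 ± 0.17 FPKM in BetP-Gel@Ran, 2.07 ± 0.42 in CNV and 0.270 ± 0.08 in untreated libraries, a rise of 1.26 in CNV against untreated libraries (adjusted p = 0.000124).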
